A study of Mus musculus with 6 samples.

Results

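The 10 genes described here encode regulators of mitochondrial biogenesis: the coactivators Ppargc1a and Ppargc1b, the estrogen-related receptors Esrra, Esrrb and Esrrg, the fatty acid receptors Ppara and Ppard, the nuclear respiratory factors Nrf1 and Gabpa, and the mitochondrial transcription factor Tfam. They were chosen by symbol from a table of read counts in 49366 gene windows, each taking in 1 kb to either side of all annotated starts of that gene, and all 10 had a row. A separate table of 36097 accessible regions (peaks) held 62 peaks linked to them, that is, peaks that overlap the gene or lie within 50 kb of one of its annotated starts.

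ATAC-seq, which uses a transposase to tag accessible DNA for sequencing, was performed on nuclei sorted for PCM1, a protein at the surface of muscle fibre nuclei. Male C57BL/6J mice aged 8 weeks received AAV6:Yap-shRNA, a viral vector carrying a short hairpin RNA against the Hippo pathway coactivator Yap, or AAV6:LacZ-shRNA, a hairpin against a bacterial gene, in gastrocnemius and tibialis anterior (TA) muscles of opposite limbs, and tissue was taken after 28 days. Each of the 3 LacZ-shRNA and 3 Yap-shRNA replicates pooled 4 gastrocnemius and 4 TA muscles, so the control limbs carried virus and a hairpin too, and values average over both muscles. The vector plasmids were of a CMV promoter series, which is not restricted to muscle, and the PCM1 sort set the cell type. The labels do not say which mice supplied which replicate, so p-values measure the spread between these pools. The comparison asked whether the chromatin of these regulators differed after loss of Yap in adult fibres, in a study of fatty acid oxidation.

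PGC-1 coactivators do not bind DNA themselves but are recruited by transcription factors such as the ERR, PPAR and NRF proteins, and the resulting complexes switch on genes of respiration and fat oxidation. In skeletal muscle they are known for their induction by endurance exercise through calcium, AMPK and cAMP signals. NRF1 and the ETS factor GABP in turn activate nuclear genes of the respiratory chain and Tfam, whose product packages mitochondrial DNA and starts its transcription.

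Totals in peaks ran from 2588520 to 6871176 counts per library and totals in windows from 3326803 to 10319467, with LacZ-shRNA replicates 1 and 2 the shallowest in both tables. Levels of marker lists are given as CPM per kb (counts scaled to library size, per kb of window), summed over the genes of a list. Promoter windows of 16 muscle fibre marker genes together held 19.0 to 26.9 CPM per kb in LacZ-shRNA and 20.4 to 23.6 in Yap-shRNA, and 8 of them held a peak. Fibroblast markers (7 genes) lay at 3.61 to 4.21 and 4.03 to 5.07, endothelial markers (7) at 5.33 to 6.05 and 5.25 to 5.77, leukocyte markers (7 of 8 listed) at 5.16 to 6.16 and 5.92 to 6.43, adipocyte markers (5) at 5.29 to 6.47 and 5.62 to 6.54, and satellite cell markers (4) at 7.68 to 8.72 and 7.59 to 8.37. Single muscle fibre markers ran from 4.10 (Myh1) to 61.0 (Atp2a1) CPM per kb as means of 6 libraries. Myh1, Myh2 (5.28) and Mstn (6.74) lay under the fibroblast marker Col1a1 (8.54), and the other fibre markers above it. A peak was present in 1 fibroblast, 1 leukocyte, 1 satellite cell, 0 endothelial and 0 adipocyte marker windows. No marker window passed the threshold, beside 0.0223% of all windows. An unadjusted p under 0.05 was found for 7 of the 30 windows of other cell types (23.3%, beside 4.9% of all windows), namely 2 fibroblast, 1 leukocyte, 2 endothelial, 1 adipocyte and 1 satellite cell marker, and for 0 of the 16 muscle fibre markers. Median log2 fold changes (Yap-shRNA against LacZ-shRNA, beside -0.014 for all windows) were 0.21 for fibroblast markers (4 of 7 above 0), 0.25 for leukocyte markers (6 of 7), 0.0041 for endothelial markers (4 of 7), 0.051 for adipocyte markers (3 of 5), -0.048 for satellite cell markers (1 of 4) and -0.085 for muscle fibre markers (4 of 16). The part of other cells in the results was not tested. The Yap1 window held 12.1, 16.7 and 14.1 CPM in LacZ-shRNA and 14.7, 16.5 and 12.1 CPM in Yap-shRNA, which does not measure the knockdown because a hairpin acts on RNA.

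Both promoters of Ppargc1a are shown first, because both were open in these myonuclei and its alternative starts give different protein isoforms. The sequences run upstream from an annotated start on the minus strand of GRCm38, 5′ to 3′, with capitals for a match to the cAMP response element (CRE, TGACGTCA), the site of CREB family factors. In the proximal promoter (chr5:51553923-51554216) the CRE starts at position -83 from the start, and in the distal promoter (chr5:51567727-51568026) these letters are not in the 300 bases shown.
Ppargc1a proximal, upstream: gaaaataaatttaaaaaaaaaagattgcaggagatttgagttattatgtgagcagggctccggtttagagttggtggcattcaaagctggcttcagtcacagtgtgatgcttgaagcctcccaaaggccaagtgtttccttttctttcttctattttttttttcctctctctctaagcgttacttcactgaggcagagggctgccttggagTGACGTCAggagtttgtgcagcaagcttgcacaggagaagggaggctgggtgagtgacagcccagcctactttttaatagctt
Ppargc1a distal, upstream: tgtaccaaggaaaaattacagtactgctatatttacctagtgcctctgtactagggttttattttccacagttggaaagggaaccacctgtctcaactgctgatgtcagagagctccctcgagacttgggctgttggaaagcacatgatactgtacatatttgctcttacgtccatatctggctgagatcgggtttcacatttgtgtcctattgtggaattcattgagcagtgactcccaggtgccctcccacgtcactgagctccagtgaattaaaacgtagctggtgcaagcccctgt

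Short motifs were then searched as exact letters on both strands in the central 300 bases of each peak (61 of the linked peaks are that wide). The core of the ERR response element (ERRE), the element bound by estrogen-related receptors, was searched as AAGGTCA, which is shorter than the full element. A match to this core, called an ERRE match here, was held by 8 of 61 linked peaks (13.1%), against 4.04% of 35840 peaks in all. These 8 belonged to Ppargc1a (1), Ppargc1b (2), Esrrg (1), Ppara (2) and Ppard (2), and the sequences of the Ppargc1b peaks are not shown. The other matches, below, are on GRCm38, read on the strand given, with the core in capitals. They are shown because these genes encode the receptors and coactivators that act through such elements. A match describes letters of the core and not a full element or a bound site.
Ppargc1a intron, chr5:51531581-51531607, plus: gatggctaggAAGGTCAttttattttc
Esrrg intron, chr1:187772120-187772146, plus: tagggactcaAAGGTCAgctatatagt
Ppara upstream, chr15:85724926-85724952, plus: ttctgtctggAAGGTCAtgtggttgcc
Ppara upstream, chr15:85725116-85725142, plus: cctggaggccAAGGTCAcagagcccag
Ppara intron, chr15:85798873-85798899, minus: aaggccaggcAAGGTCAgttgggctta
Ppard intron, chr17:28241345-28241371, minus: cacaggacagAAGGTCActgactcccc
Ppard internal start, chr17:28294438-28294464, minus: tgtgttacatAAGGTCAtaagtggcct

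Matches to the sites of the factors that the NRF branch encodes were fewer in number. The NRF1 site (CGCATGCG) was in 2 of the linked peaks (3.28%, against 0.843% of all peaks), an Esrrb intron peak and a peak downstream of Ppard. The GABP or ETS core (CCGGAAG) was in 2 (3.28%, against 7.58% of all peaks), at Tfam and downstream of Ppard. In the RefSeq promoter set of the same build (32817 promoters of 300 bases that span a start), 14 promoters of 9 of the genes were present. Among them the NRF1 site lay 30 bases before a Ppara start and 8 before a Gabpa start (1.86% of all promoters held it), and the ETS core 93 bases before the same Gabpa start and 47 before a Tfam start (8.86% of all). The first Esrrg promoter held a MEF2 site (CTATTTATA, 0.43% of all promoters) at -22 and the reverse complement of the TEAD site (ACATTCC, 3.85% of all) at -130. TEAD proteins are the DNA-binding partners of Yap, and in the peaks the TEAD site was in 1 of 61 (2.17% of all peaks), in the Tfam promoter. The CRE was in 1 of 61 (0.834% of all), the E-box CACGTG in 1 of 61 (4.72% of all), and the MEF2 site in 0 of 61 (0.491% of all). The stretches below carry these sites in capitals.
Gabpa, NRF1 site, chr16:84835107-84835132, plus: tgcactgtaCGCATGCGtattctggc
Gabpa, ETS core (reverse), chr16:84835021-84835047, plus: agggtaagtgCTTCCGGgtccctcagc
Tfam, ETS core, chr10:71238075-71238101, minus: ctgccgcggaCCGGAAGtccgggcttc
Tfam, TEAD site, chr10:71237909-71237935, plus: agcacgctccACATTCCccggaacagc
Ppara, NRF1 site, chr15:85735737-85735762, plus: gctcggtggCGCATGCGcgcggacta
Esrrg, MEF2 site, chr1:187608975-187609001, plus: aaaactttgCTATTTATAgtctacgcc
Esrrg, TEAD site (reverse), chr1:187608866-187608892, plus: agcctgaagaGGAATGTcgggtctttt

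In control myonuclei the promoter windows of the regulators differed widely in accessibility. Esrra was highest at 35.5 CPM per kb, followed by Ppargc1b (22.4), Ppard (16.5), Ppara (14.2), Ppargc1a (9.59), Tfam (8.69), Esrrb (7.92), Nrf1 (7.73), Esrrg (6.87) and Gabpa (2.37), as means of the 3 LacZ-shRNA replicates. The replicate ranges of neighbours in this order overlapped except between Ppargc1b (lowest 19.1) and Ppard (highest 18.6), between Ppara (lowest 12.1) and Ppargc1a (highest 11.02), and between Esrrg (lowest 6.35) and Gabpa (highest 2.54). Windows without any peak had a median of 4.14 CPM per kb and a 90th percentile of 6.86 over 36366 genes, and 8 of the 10 regulators lay above that percentile by their mean over the 6 libraries. Every regulator window held a peak, and the 13000 windows with a peak had a median of 6.90, close to that percentile. Lack of a peak did not always mean a low level, as the window of the muscle fibre marker Atp2a1 held 61.0 CPM per kb with 0 peaks. A window sums all of a gene's starts, so a gene with many unused starts has a lower level per kb, and counts of the Gabpa window are uncertain because it overlaps the window of Atp5j. The promoter peak that Gabpa shares with Atp5j held 37.6 CPM per kb, against 39.5 at the Esrra promoter peak. The low Gabpa window value therefore does not mean a closed promoter.

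**Figure D1:**
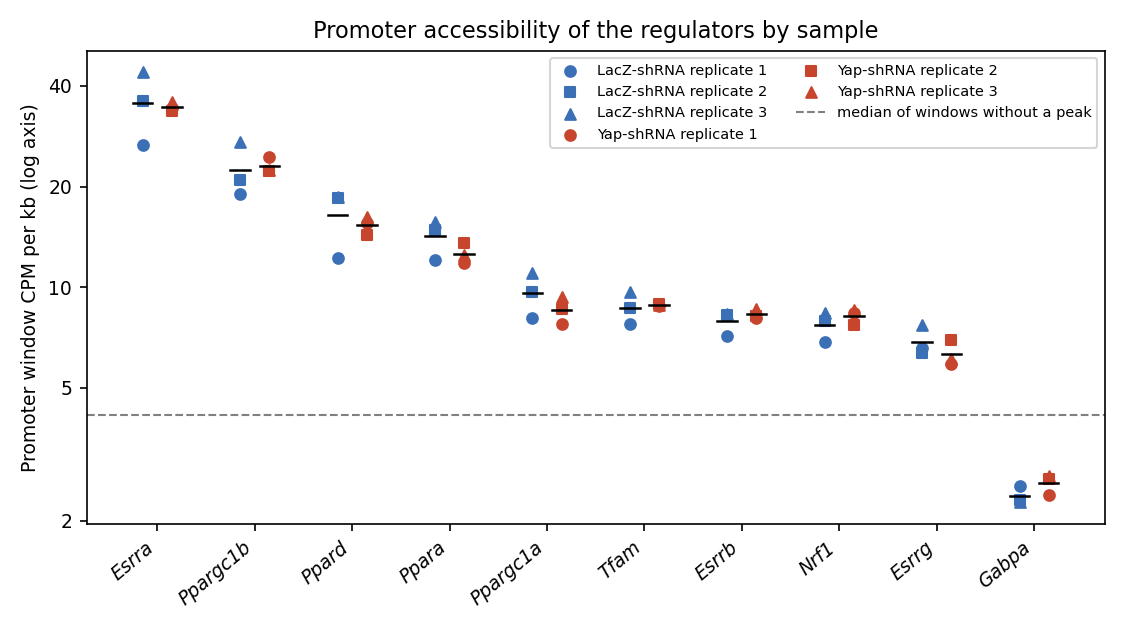
Accessibility of the promoter windows of the 10 regulators, in CPM per kb on a log axis, with each point a replicate (circle, square and triangle for replicates 1, 2 and 3), blue for LacZ-shRNA, red for Yap-shRNA and a black bar for each group mean. The groups overlap for every gene, Esrra is highest, and Gabpa alone lies under the dashed line at 4.14, the median of windows without a peak. Counts of the Gabpa window are uncertain because it overlaps the Atp5j window, and the Gabpa promoter peak held 37.6 CPM per kb.

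Knockdown of Yap was not accompanied by a detectable change in any of these windows. Across all windows 0.0223% passed an adjusted p of 0.05 (edgeR's quasi-likelihood test with Benjamini-Hochberg adjustment over all windows), and 0 of the 10 regulators did. An unadjusted p under 0.05 was found for 4.9% of all windows and 0 of the regulators, and groups that did not overlap for 10.1% of all windows and 0 of the regulators. Log2 fold changes, Yap-shRNA against LacZ-shRNA, ran from -0.17 to 0.13, with 5 above and 5 below 0 and a median of -0.013 against -0.014 over all windows. The 95% intervals differed by gene, with the lowest bound at Ppargc1a (-0.46 to 0.11) and the highest at Gabpa (-0.18 to 0.44). Changes within the interval of each gene remain compatible with these 6 libraries. A lower level in bulk nuclei can mean fewer nuclei with an open site or fewer openings per nucleus, which cannot be told apart.

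Among the coactivators, Ppargc1a (ENSMUSG00000029167, chromosome 5, 51454250 to 51567726, minus strand), the main inducible regulator of mitochondrial content, held 32.9, 39.4 and 44.9 CPM in its window in LacZ-shRNA and 31.6, 35.0 and 38.1 CPM in Yap-shRNA. All but 1 of the Yap-shRNA replicates lay inside the control range, and the log2 fold change was -0.17 (SE 0.14, adjusted p 0.951 by edgeR). Its relative Ppargc1b (ENSMUSG00000033871), which is linked to basal mitochondrial function, held 38.7, 42.6 and 55.3 CPM against 49.9, 45.2 and 45.4 CPM. All 3 Yap-shRNA values fell within the control range and the log2 fold change was 0.024 (SE 0.14, adjusted p 0.991 by edgeR). Its sign turned without LacZ-shRNA replicate 1 (-0.11) or 2 (-0.017) and without Yap-shRNA replicate 1 (-0.022).

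The ERR genes encode orphan receptors that bind the ERRE without a known natural ligand. Esrra (ENSMUSG00000024955, chromosome 19), the form most tied to oxidative metabolism, held 73.4, 99.3 and 121 CPM in LacZ-shRNA and 94.9, 92.8 and 98.7 CPM in Yap-shRNA. The control replicates spanned a wider range than the knockdown replicates, which all lay inside it, and the log2 fold change was -0.045 (SE 0.15, adjusted p 0.987 by edgeR), with 0.16 when LacZ-shRNA replicate 3 was left out. Esrrb (ENSMUSG00000021255, chromosome 12), best known from pluripotent stem cells, held 59.0, 68.2 and 68.6 CPM against 66.6, 67.7 and 71.2 CPM. These groups also overlapped, at a log2 fold change of 0.070 (SE 0.13, adjusted p 0.978 by edgeR), which was -0.0022 without LacZ-shRNA replicate 1. Esrrg (ENSMUSG00000026610, chromosome 1), a receptor of oxidative muscle and heart, held 32.6, 31.4 and 38.1 CPM against 29.2, 34.4 and 30.1 CPM, with 1 Yap-shRNA replicate inside the control range and 2 under it (log2 fold change -0.14, SE 0.14, adjusted p 0.958 by edgeR).

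The PPAR genes encode fatty acid receptors that induce genes of fat oxidation. Ppara (ENSMUSG00000022383, chromosome 15) held 62.1, 76.6 and 80.5 CPM in LacZ-shRNA and 60.7, 69.7 and 64.2 CPM in Yap-shRNA. All but 1 knockdown replicate lay inside the control range, and the log2 fold change was -0.17 (SE 0.14, adjusted p 0.949 by edgeR). Ppard (ENSMUSG00000002250, chromosome 17), the main form of skeletal muscle, held 80.0, 121 and 121 CPM against 101, 93.7 and 106 CPM. The knockdown values sat between the lowest control and the others, with a log2 fold change of -0.095 (SE 0.15, adjusted p 0.972 by edgeR), which was 0.013 without LacZ-shRNA replicate 3.

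Of the factors that act on the nuclear and mitochondrial genes of respiration, Nrf1 (ENSMUSG00000058440, chromosome 6) held 70.2, 81.1 and 85.4 CPM against 85.6, 78.8 and 87.0 CPM. Its log2 fold change was 0.085 (SE 0.13, adjusted p 0.974 by edgeR), less than its controls varied among themselves, and -0.00022 without LacZ-shRNA replicate 1. Tfam (ENSMUSG00000003923, chromosome 10) held 38.5, 42.9 and 47.8 CPM against 43.7, 44.1 and 43.8 CPM. Its knockdown replicates lay close together inside the control range (log2 fold change 0.019, SE 0.14, adjusted p 0.993 by edgeR), and the value was -0.069 without LacZ-shRNA replicate 1. Gabpa (ENSMUSG00000008976, chromosome 16), the DNA-binding subunit of GABP, held 20.8, 18.9 and 18.7 CPM against 19.6, 21.9 and 22.4 CPM, with 2 of 3 knockdown replicates above the controls and a log2 fold change of 0.13 (SE 0.15, adjusted p 0.962 by edgeR).

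**Figure D2:**
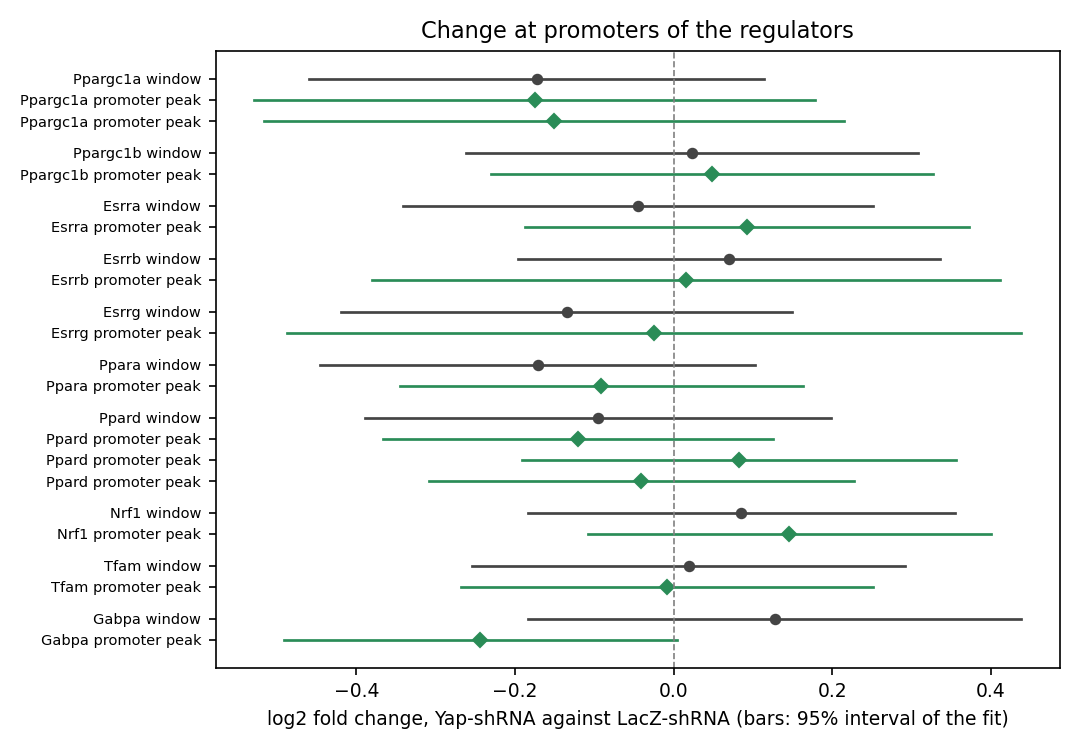
Log2 fold changes (Yap-shRNA against LacZ-shRNA) with 95% intervals from the edgeR fits, for the window of each regulator (dark circles) and each of its promoter peaks (green diamonds). Every interval includes 0, and the window and promoter peak of Gabpa lie on opposite sides of it (0.13 and -0.24).

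Single libraries set the sign of 6 of these 10 differences. Ppargc1b, Esrra, Esrrb, Ppard, Nrf1 and Tfam turned sign when 1 library was left out, a control in each case and for Ppargc1b also a knockdown library. Ppargc1a (-0.30 to -0.037), Ppara (-0.28 to -0.084), Esrrg (-0.21 to -0.034) and Gabpa (0.088 to 0.18) kept their sign in each of the 6 fits without 1 library. LacZ-shRNA replicate 1 was the lowest control at 8 of the 10 regulators (37.7% of all windows and 68.9% of the 13000 windows with a peak), and LacZ-shRNA replicate 3 was the highest at 9. Without LacZ-shRNA replicate 1, 1 of the 10 regulators was above 0 and the median was -0.15, against -0.063 for all windows with a peak. In that fit 4 had an unadjusted p under 0.05, beside 6.91% of all windows and 12.3% of windows with a peak, 157 windows in all passed the threshold, and the smallest edgeR adjusted p was 0.385, at Ppard with a log2 fold change of -0.27. Without LacZ-shRNA replicate 3, 7 of the 10 were above 0 and the median was 0.10, against 0.071 for windows with a peak. The spread of the controls was the larger one at 9 of the 10 regulators and at 78.2% of all windows. The ratio of peak counts to window counts, 0.704, 0.778 and 0.767 in LacZ-shRNA and 0.688, 0.649 and 0.683 in Yap-shRNA, also differed between libraries, and its part in these values was not tested.

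**Figure D3:**
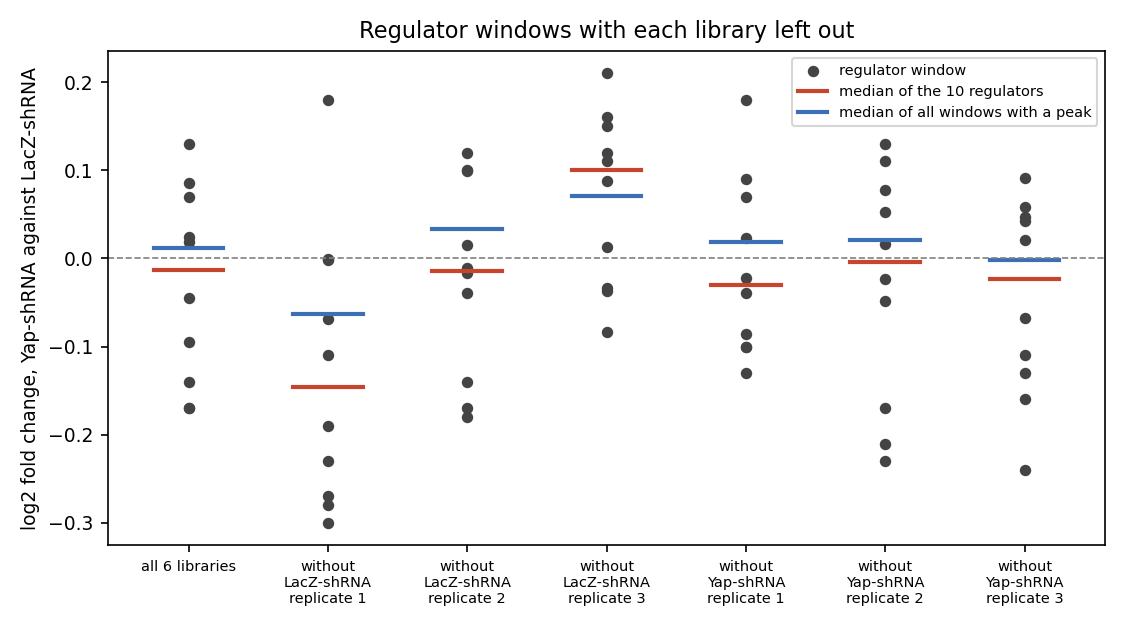
Log2 fold changes of the 10 regulator windows (points) with all 6 libraries and with each library left out, with their median (red bar) and the median of all windows with a peak (blue bar). The red bar falls to -0.15 without LacZ-shRNA replicate 1 and lies at 0.10 without LacZ-shRNA replicate 3.

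The peaks resolve where in each gene the open chromatin lay. The 62 linked peaks comprised 13 promoter peaks (within 1 kb of a start of the gene), 27 other peaks in the gene body and 22 flanking peaks outside it. Ppard had 13, Ppargc1b and Esrrg 8 each, Esrrb and Ppara 7 each, Ppargc1a 6, Esrra and Tfam 5 each, Nrf1 2 and Gabpa 1. Their median accessibility was 24.6 CPM per kb, against 20.1 for all peaks, and promoter peaks had a median of 30.6 with a range from 16.01 at Esrrg to 39.5 at Esrra. Other genes start within 1 kb of 13 of the 62 peaks, 10 of them flanking peaks, so a flanking peak is linked to the regulator by position alone.

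**Figure D4:**
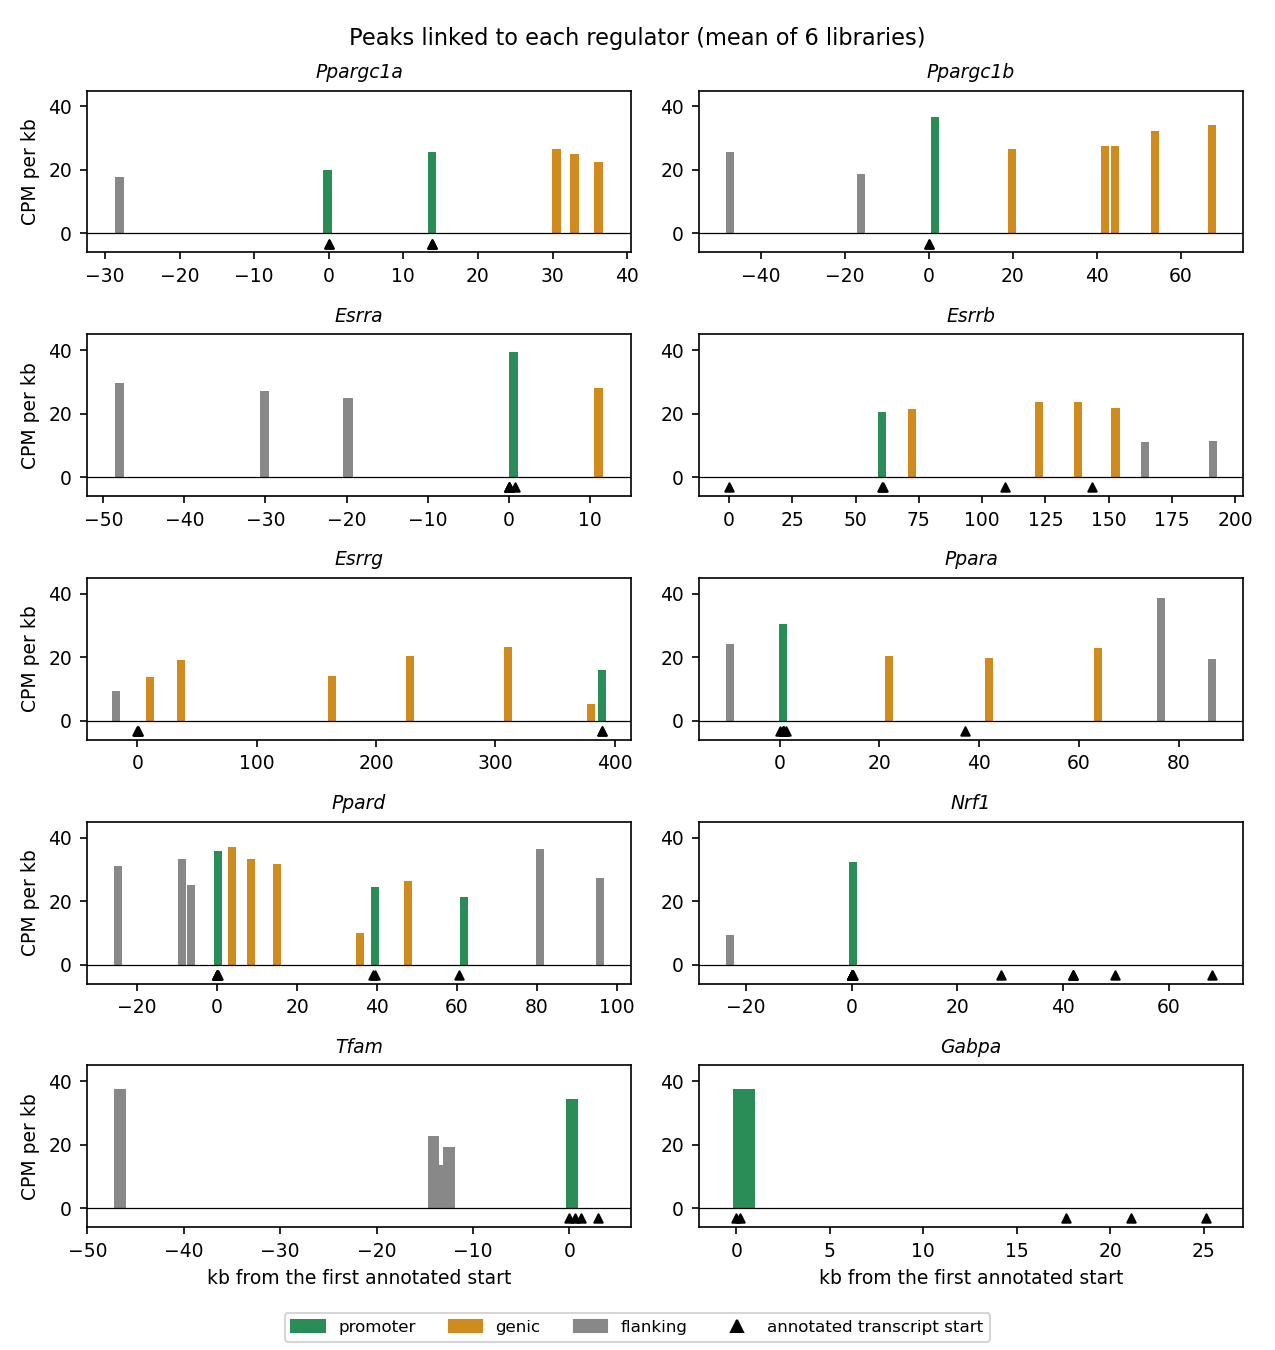
Peaks linked to each regulator, placed by the distance of their centre in kb from the gene's first annotated start (in the direction of transcription), with bar height the mean CPM per kb of the 6 libraries; bar widths are not to scale. Green bars are promoter, orange gene body and grey flanking peaks, and triangles mark annotated starts. Esrrb and Esrrg have their promoter peak at an internal start and no peak at the first, whereas Ppargc1a has a peak at both of its start clusters.

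The genes differed in which of their annotated starts held a peak. Ppargc1a had a peak at each of its start clusters, the distal one (chr5:51567490-51568266, 19.9 CPM per kb) and the proximal one (chr5:51553545-51554216, 25.7 CPM per kb), whose upstream sequences are printed above. Ppard had a peak at all 3 of its start clusters, at 35.9, 24.3 and 21.2 CPM per kb from the first to the last. Esrrb had no peak at its first annotated start (86361117) and 1 at an internal cluster (chr12:86421281-86421909, 20.6 CPM per kb), and Esrrg had none at its first starts (from 187608791) and 1 at the internal cluster (chr1:187997475-187998107, 16.01 CPM per kb). The single promoter peak of Nrf1 (chr6:30047523-30048930, 32.2 CPM per kb) covered its first 10 starts and none of the later ones, and that of Ppara (chr15:85734291-85736868, 30.6 CPM per kb) covered the first 5 of 6. A start without a peak in this set may still be open. The windows of the muscle fibre markers Atp2a1 and Ckm held 61.0 and 41.0 CPM per kb with 0 peaks, above Esrra at 35.0 (means of 6 libraries).

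The division of counts between alternative promoters did not differ detectably between the groups. The distal peak of Ppargc1a held 40.2%, 54.3% and 47.7% of the gene's promoter peak counts in LacZ-shRNA and 48.95%, 43.8% and 49.3% in Yap-shRNA, a difference of -0.050 points (exact permutation p 1, two-sided, n = 3 per group). The knockdown values lay inside the control range. At Ppard the first promoter held 43.2% ± 2.06 in LacZ-shRNA and 40.7% ± 2.05 in Yap-shRNA, the second 29.9% ± 2.88 and 32.8% ± 2.63, and the third 26.9% ± 1.10 and 26.6% ± 3.11 (SD, n = 3 per group; exact permutation p 0.3, 0.4 and 1, adjusted 1 over 5 shares). With 3 samples against 3 the test cannot give a p under 0.1.

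None of the linked peaks passed the threshold. Over all peaks 0.618% had an adjusted p under 0.05, against 0 of the 62, where the smallest edgeR adjusted p was 0.176. An unadjusted p under 0.05 was found for 7 of the 62 (11.3%), 4 higher and 3 lower in Yap-shRNA, beside 8.9% of all peaks, and non-overlapping groups also for 7 (11.3%), 4 higher and 3 lower, beside 13.3% of all peaks. The median log2 fold change was 0.016, against -0.0026 over all peaks, with 34 above and 28 below 0. Of the 22 flanking peaks 18 were above 0 (median 0.097), of the 27 gene body peaks 11, and of the 13 promoter peaks 5. All peaks were not split into these classes, so these counts have no background, and 10 of the 22 flanking peaks lie within 1 kb of a start of another gene. When library size alone replaced TMM scaling, the median of all peaks moved to 0.14 and that of the linked peaks to 0.15, so directions are relative to the scaling.

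The smallest p belonged to a peak in an intron of Esrrb (chr12:86513454-86514125), 9.04 kb from the gene's last annotated start. It held 9.04, 11.5 and 13.7 CPM in LacZ-shRNA and 19.3, 14.6 and 20.2 CPM in Yap-shRNA, so that every knockdown replicate was above every control. The log2 fold change was 0.62 (SE 0.19, unadjusted p 0.0026, adjusted p 0.176 by edgeR), between 0.47 and 0.84 with single libraries left out, and the peak passed the threshold only with library size alone as the scaling (0.75, adjusted p 0.040 by edgeR). Its central sequence is given here, on the plus strand, because this peak had the smallest p of the 62, and it holds no match to the motifs searched.
Esrrb intron, chr12:86513640-86513939: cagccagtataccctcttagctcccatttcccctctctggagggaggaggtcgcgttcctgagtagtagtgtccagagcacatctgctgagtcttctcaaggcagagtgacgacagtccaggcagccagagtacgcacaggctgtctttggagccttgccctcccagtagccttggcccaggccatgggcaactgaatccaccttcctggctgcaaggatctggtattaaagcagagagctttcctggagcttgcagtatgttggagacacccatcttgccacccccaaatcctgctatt

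The only promoter peak of Esrrb held 12.3, 11.5 and 14.4 CPM in LacZ-shRNA and 11.8, 15.4 and 12.2 CPM in Yap-shRNA, with overlapping groups (log2 fold change 0.015, SE 0.20, adjusted p 0.996 by edgeR). Leaving out Yap-shRNA replicate 2 gave -0.11 and leaving out LacZ-shRNA replicate 3 gave 0.14.

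Of the 8 Esrrg peaks 2 had an unadjusted p under 0.05 by edgeR, beside 8.9% of all peaks. Their signs were opposite, and neither passed the threshold. An intronic peak 9.52 kb from the nearest start (chr1:187619218-187620170) held 10.1, 14.4 and 8.10 CPM in LacZ-shRNA and 13.8, 14.0 and 18.03 CPM in Yap-shRNA, with overlapping groups (log2 fold change 0.58, SE 0.21, adjusted p 0.314 by edgeR). Another, deeper in the gene (chr1:187836659-187837336), held 14.8, 15.7 and 17.97 CPM against 11.9, 11.8 and 11.4 CPM, so that all knockdown replicates were below the controls (log2 fold change -0.48, SE 0.19, adjusted p 0.351 by edgeR). Its promoter peak held 7.67, 7.64 and 14.3 CPM against 10.4 CPM in each knockdown replicate, and its log2 fold change of -0.025 (SE 0.23, adjusted p 0.994 by edgeR) became 0.44 without LacZ-shRNA replicate 3. At Esrra all 5 linked peaks had values above 0, from 0.051 to 0.19, with overlapping groups and a smallest adjusted p of 0.745 by edgeR. The Esrra promoter peak held 125, 147 and 171 CPM against 154, 159 and 160 CPM (log2 fold change 0.092, and -0.019 without LacZ-shRNA replicate 1), whereas the window of the gene had the other sign.

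At Ppargc1a 5 of the 6 linked peaks were below 0 and 1 above it. The proximal promoter peak, with the CRE printed above, held 19.99, 13.6 and 20.5 CPM in LacZ-shRNA and 14.0, 18.3 and 17.2 CPM in Yap-shRNA (log2 fold change -0.18, SE 0.18, adjusted p 0.866 by edgeR). The distal promoter peak held 13.4, 16.1 and 18.7 CPM against 13.4, 14.3 and 16.7 CPM (log2 fold change -0.15, SE 0.18, adjusted p 0.901 by edgeR), and 0.018 without LacZ-shRNA replicate 3. Groups overlapped at both promoters. An intronic peak 18.5 kb downstream of a start held 29.6, 36.9 and 34.0 CPM against 31.2, 25.1 and 23.0 CPM (log2 fold change -0.33, SE 0.14, adjusted p 0.457 by edgeR). In the flank, 27.9 kb upstream (chr5:51595578-51596065), a peak held 6.85, 7.64 and 7.22 CPM against 11.9, 9.17 and 9.26 CPM, all knockdown replicates lying above the controls (log2 fold change 0.49, SE 0.24, adjusted p 0.558 by edgeR).

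Ppargc1b had a promoter peak of 4254 bp that also lies within 1 kb of the starts of Mir378a, a microRNA gene hosted by Ppargc1b, and of Gm25301. It held 151, 136 and 172 CPM in LacZ-shRNA and 174.9, 153.8 and 149.4 CPM in Yap-shRNA, with overlapping groups (log2 fold change 0.049, SE 0.14, adjusted p 0.970 by edgeR), and was -0.025 without LacZ-shRNA replicate 2 and -0.023 without Yap-shRNA replicate 1. A flanking peak 15.9 kb upstream (chromosome 18, 61416358 to 61416892) held 8.49, 5.94 and 8.84 CPM against 12.7, 11.3 and 12.4 CPM. This peak is 1 of the 2 of Ppargc1b with an ERRE match. All knockdown replicates were above the controls there, at a log2 fold change of 0.59 (SE 0.23, unadjusted p 0.013, adjusted p 0.349 by edgeR). With single libraries left out the value ran from 0.48 to 0.70, and groups that do not overlap keep their sign in such fits.

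**Figure D5:**
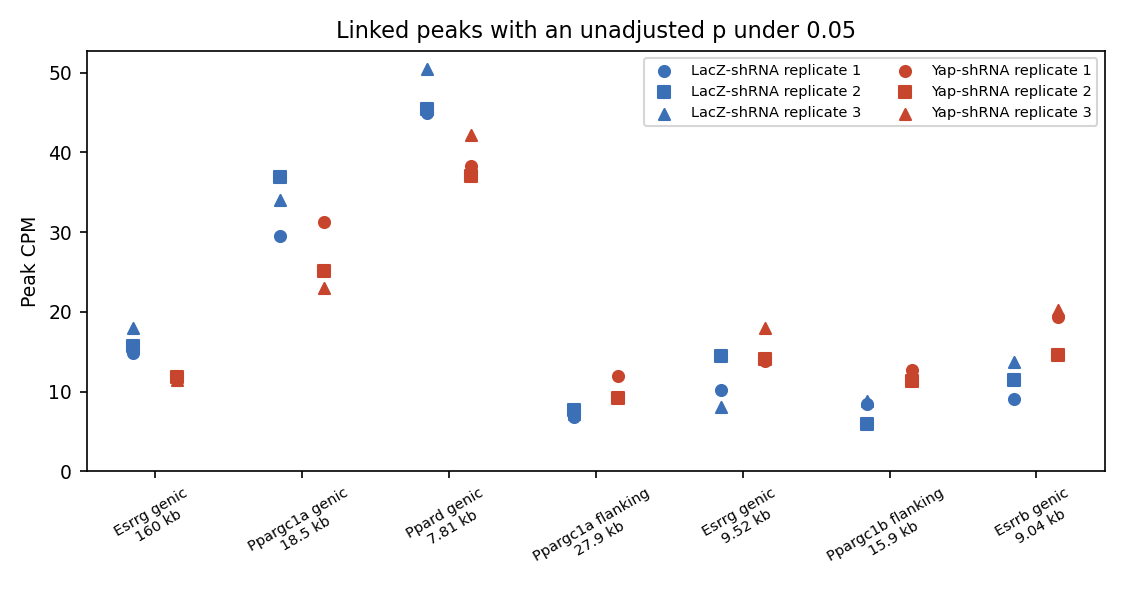
CPM by replicate of the 7 linked peaks with an unadjusted p under 0.05, ordered by log2 fold change, with blue for LacZ-shRNA and red for Yap-shRNA; labels give the gene, the class and the distance to its nearest annotated start in kb. The groups do not overlap at 5 of the 7, but the 7 were picked by their p, so this count is no separate support. Over all peaks 13.3% had groups that did not overlap. None of the 7 passed the adjusted threshold.

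The 13 peaks of Ppard included 2 with non-overlapping groups, in opposite directions, beside 13.3% of all peaks with groups that did not overlap. An intronic peak 7.81 kb from the nearest start (chr17:28240616-28241914), which holds the ERRE match of the Ppard intron printed above, held 44.9, 45.4 and 50.5 CPM in LacZ-shRNA and 38.3, 37.1 and 42.2 CPM in Yap-shRNA (log2 fold change -0.27, SE 0.13, adjusted p 0.503 by edgeR). A peak 34.2 kb downstream, within 1 kb of a start of the ribosomal protein gene Rpl10a, held 56.95, 61.1 and 57.7 CPM against 67.5, 66.4 and 67.0 CPM (log2 fold change 0.20, adjusted p 0.696 by edgeR). Every promoter peak of Ppard overlapped between groups, with log2 fold changes of -0.12, 0.082 and -0.041 from the first to the last; the second was -0.080 without LacZ-shRNA replicate 1. At Ppara the 7 peaks ran from -0.091 at the promoter, which held 74.5, 79.8 and 89.6 CPM against 69.5, 85.5 and 75.1 CPM, to 0.27 in a flanking peak within 1 kb of a start of Pkdrej, and the smallest edgeR adjusted p was 0.706.

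The promoter peaks of Nrf1 and Tfam did not pass the threshold. The Nrf1 promoter held 42.7, 37.4 and 47.9 CPM in LacZ-shRNA and 48.1, 48.5 and 47.5 CPM in Yap-shRNA (log2 fold change 0.15, SE 0.13, adjusted p 0.831 by edgeR). That of Tfam, with the ETS and TEAD letters printed above, held 34.5, 42.9 and 42.0 CPM against 39.0, 39.3 and 40.4 CPM (log2 fold change -0.0081, SE 0.13, adjusted p 0.996 by edgeR). Groups overlapped at both, and the Tfam value was 0.032 and 0.052 without LacZ-shRNA replicate 2 or 3. The flanking peaks with the smallest p were of low level, at 10.4, 11.9 and 7.51 CPM against 11.1, 10.7 and 16.4 CPM for Nrf1 (log2 fold change 0.42, adjusted p 0.628 by edgeR) and 0.548, 1.70 and 3.09 CPM against 3.17, 3.33 and 2.32 CPM for Tfam (0.56, adjusted p 0.809 by edgeR). Their groups overlapped, and the Tfam value was 0.14 without LacZ-shRNA replicate 1 and 1.54 without LacZ-shRNA replicate 3.

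Gabpa shares its promoter peak with Atp5j, a subunit gene of the ATP synthase with a start in the same peak. Of the 13 promoter peaks only this peak had groups that did not overlap, beside 13.3% of all peaks. It spans chr16:84834106-84836593 and held 99.7, 103 and 102 CPM in LacZ-shRNA and 85.1, 88.5 and 83.5 CPM in Yap-shRNA. The log2 fold change was -0.24 (SE 0.12, unadjusted p 0.054, adjusted p 0.578 by edgeR), from -0.27 to -0.23 with single libraries left out and -0.10 with library size alone. The peak held 3.16 times the counts of the Gabpa window although most of it lies inside that window. The Atp5j window held 39.4, 43.3 and 40.1 CPM against 34.2, 28.1 and 38.8 CPM (log2 fold change -0.28, adjusted p 0.946 by edgeR), so the peak and the Gabpa window, whose counts are uncertain, pointed in opposite directions.

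Genes that act with or under the regulators were read from the same fit, as lists described by counts. Only 0.0223% of all windows passed the threshold, so 0 calls in lists of this size do not set them apart. Of the PGC-1 and nuclear receptor partners, 18 of 18 had a window, 0 passed the threshold and 11 were above 0 (median 0.074, against -0.014 for all windows). Med1, a Mediator subunit that nuclear receptors contact, had the smallest p among those above 0, with 42.3, 56.4 and 51.4 CPM in LacZ-shRNA and 62.7, 54.5 and 61.1 CPM in Yap-shRNA (log2 fold change 0.26, adjusted p 0.946 by edgeR). Perm1, a muscle regulator induced by PGC-1 and ERR, had the smallest p among those below 0 (log2 fold change -0.20, adjusted p 0.949 by edgeR).

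Signals upstream of PGC-1, such as AMPK, CaMKII and the CREB coactivators, had 24 of 24 windows, 0 past the threshold and a median of -0.0077. Crtc1, a CREB coactivator, was higher in every knockdown replicate (65.1, 78.2 and 77.9 CPM against 83.3, 87.2 and 90.1 CPM; log2 fold change 0.24, adjusted p 0.946 by edgeR), and Prkag3, the AMPK subunit typical of glycolytic fibres, had the smallest p below 0 (-0.23, adjusted p 0.946 by edgeR). Genes of mitochondrial DNA maintenance and transcription had 14 of 17 windows, 0 past the threshold and a median of 0.026, with Top1mt, the mitochondrial topoisomerase, lower in every knockdown replicate (55.9, 68.6 and 60.3 CPM against 49.3, 55.1 and 51.3 CPM; log2 fold change -0.24, adjusted p 0.946 by edgeR) and Tefm, a mitochondrial elongation factor, at 0.20.

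The ERR and PPAR target genes had 28 of 28 windows, 0 past the threshold (beside 0.0223% of all windows) and a median of -0.011, with 13 above and 15 below 0. Pdk4, the kinase that spares glucose by shutting off pyruvate dehydrogenase, was the only one of the 28 with an unadjusted p under 0.05. Over all windows 4.9% had such a p, so 1 of 28 does not stand out from all windows. Its window held 60.6, 75.9 and 85.3 CPM in LacZ-shRNA and 74.0, 51.6 and 54.9 CPM in Yap-shRNA, with overlapping groups (log2 fold change -0.30, SE 0.15, adjusted p 0.946 by edgeR). Hadha, a subunit of the trifunctional enzyme of beta-oxidation, had the smallest p above 0 (0.22, adjusted p 0.946 by edgeR).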

How the data were processed

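ATAC-seq reads of 3 LacZ-shRNA and 3 Yap-shRNA replicates were mapped by the authors to GRCm38 with BWA 0.7.17, duplicates were removed with SAMtools 1.8, peaks were called with MACS 1.4.2-1, and peaks found in more than 1 sample were kept. The authors counted reads with featureCounts 1.5.0 and deposited them as raw counts, with rows of a mean under 10 removed. No blacklist, mapping quality or transposase shift is stated for these tables, and none can be applied to counts.

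Counts of all 49366 windows and, separately, all 36097 peaks were compared with edgeR 4.0.16 in R 4.3.3 (quasi-likelihood test, TMM factors, no covariate, Benjamini-Hochberg adjustment at 0.05), which was tested on simulated data. Levels are TMM-normalised CPM. Windows were matched to GENCODE annotation of the same build. Shares were compared by exact permutation tests. Motifs were exact letters on both strands.

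The regulators and lists were chosen with earlier results of these data known. Named features were every regulator, every promoter peak, the linked peak with the smallest p in each direction per regulator, and the window with the smallest p in each direction per list. The fits were repeated with DESeq2 1.42.0, with edgeR's likelihood-ratio test, with library size alone, with a loess offset, on rows averaging 50 or more counts, without the 1% most abundant rows, with an adjusted p under 0.01, with a replicate block and without each library in turn. In the marker lists those windows were Neb and Mylpf (muscle fibre), Col1a1 and Pdgfra (fibroblast), Csf1r and Ptprc (leukocyte), Pecam1 and Kdr (endothelial), Cidec and Lep (adipocyte), and Cdh15 and Calcr (satellite cell), and the smallest adjusted p among them by edgeR was 0.909, at Kdr.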

Additional observations from a re-analysis of the deposited data

How the results depend on the processing

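Under the alternatives run, no regulator window passed an adjusted p of 0.05, and of the linked peaks only the Esrrb intron peak did, with library size alone (1 call, log2 fold change 0.75). Linking peaks within 10 kb gave 0 calls, and promoter peaks within 500 bp gave the same shares. Over all regulator windows and alternatives, 121 values kept direction and call and 9 turned sign; for the named peaks 331 did so, 28 turned sign and 1 gained a call. The signs that turned belong to differences under 0.2 on the log2 scale in the reported comparison, and the cause was not tested.

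Calls over all windows, 11 in the reported comparison, were 33 with the likelihood-ratio test, 20 with DESeq2 (no adjusted p for 38284 windows), 33 with the loess offset, 7 without the most abundant rows, and 4 to 157 with single libraries left out, the highest without LacZ-shRNA replicate 1. Calls over all peaks, 223 in the reported comparison, were 378 with the likelihood-ratio test, 118 with DESeq2 (no adjusted p for 12597 peaks), 142 with the loess offset, 136 at a mean count of at least 50, 103 at an adjusted p under 0.01, and 94 to 447 with single libraries left out, the highest without LacZ-shRNA replicate 3.

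With library size alone the Esrra window was at 0.02, the Ppargc1b intron peak at 0.0068, the named Esrrb intron peak with a reported value of -0.060 at 0.076, and the promoter peaks of Esrrg at 0.11, Ppara at 0.052, Ppard at 0.021 (first) and 0.10 (last) and Tfam at 0.13, with a Tfam flanking peak at 0.10. The Esrrg promoter peak was at 0.0082 with DESeq2, and the Esrrb promoter peak at -6.8e-05 with the loess offset.

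With single libraries left out, windows ran from -0.11 to 0.21 (Ppargc1b), -0.23 to 0.16 (Esrra), -0.0022 to 0.11 (Esrrb), -0.27 to 0.013 (Ppard), -0.00022 to 0.15 (Nrf1) and -0.069 to 0.12 (Tfam). Promoter peaks ran from -0.27 to 0.018 (Ppargc1a, distal), -0.025 to 0.14 (Ppargc1b), -0.019 to 0.23 (Esrra), -0.11 to 0.14 (Esrrb), -0.21 to 0.44 (Esrrg), -0.08 to 0.21 (Ppard, second), -0.15 to 0.016 (Ppard, last) and -0.098 to 0.052 (Tfam), that Esrrb intron peak from -0.12 to 0.023, and Tfam flanking peaks from -0.16 to 0.065 and, without a change of sign, from 0.14 to 1.54. The share difference ran from -3.67 to 3.39 points at the distal Ppargc1a promoter and from -2.09 to 0.66 points at the last Ppard promoter.

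The replicate numbers were not taken as pairs, because the labels do not say which mice supplied which replicate. Correlations of same-numbered deviations were 0.191, -0.121 and 0.0923 in windows and 0.0155, -0.0931 and -0.139 in peaks. Such values cannot show whether same-numbered pools share mice. A fit with a replicate block called 13 windows and 207 peaks, 0 of them regulator windows or linked peaks, and put the Esrrg promoter peak at 0.07. Counting error is largest in LacZ-shRNA replicates 1 and 2, the shallowest libraries, and 95% intervals of regulator windows reached from -0.46 to 0.44.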
